A study of Mus musculus with 18 samples.

Results

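The genes described here encode the signalling core of the T cell antigen receptor and its coreceptors. The 10 genes were *Cd3d*, *Cd3e*, *Cd3g*, *Cd247*, *Lck*, *Zap70*, *Lat*, *Cd4*, *Cd8a* and *Cd8b1*, taken by symbol out of the 49585 genes of a bulk RNA-Seq count table, and all 10 were detected in all 18 libraries. The lowest count of any of them in any library was 182 and the highest was 30145, so none was near the detection limit. CD45+ leukocytes were sorted from inflamed joints, inflamed ear skin and draining lymph nodes of mice, and the question addressed was which transcripts differ between leukocytes that stay in an inflamed tissue and those that leave it for the node.

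The 18 libraries formed 6 groups of 3. All mice were of the Kaede strain, which carries a photoconvertible fluorescent protein, and were aged 6 to 10 weeks. The inflamed mice received OT-II CD45.1 T cells polarised to Th1, were immunised with ovalbumin (OVA) in CFA, and were challenged with heat-aggregated ovalbumin (HAO) in the footpad or the ear pinna. The paw or ear was photoconverted on the third day after challenge and the cells were collected a day later by sorting viable CD45+ Kaede red+ cells, so cells that had been in the tissue at photoconversion stayed marked. Red cells still in the tissue are called joint nonmigrated and skin nonmigrated, and red cells found in the draining node are called joint migrated and skin migrated. The transferred OT-II cells carry no Kaede protein and were therefore outside the sort. The other 2 groups are labelled steady state and were described as leukocytes that had reached the node from the joint or from the ear. The titles of the joint steady-state libraries carry the codes PBS and KG and those of the skin steady-state libraries the word Naive. The labels explain none of these. The study's methods name PBS as the alternative to HAO in the challenge. Which further treatments the steady-state mice had received is not given in the sources used here. The inflamed ear and ear-draining node libraries carry KR in place of KG, the sort is described as Kaede red+ for all libraries, and unconverted Kaede is green. Whether the joint steady-state cells were converted cells, and so had come from the joint, is therefore not settled. The skin steady-state titles carry neither KR nor KG, so they do not settle it for that group either. Every comparison with a steady-state group carries this limit. Each inflamed library was a pool of mice, and p-values measure only the spread between pools.

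The T cell antigen receptor binds peptide on MHC molecules through variable chains that have almost no cytoplasmic tail. It signals through the CD3 chains encoded by *Cd3d*, *Cd3e* and *Cd3g* and through the zeta chain encoded by *Cd247*. The kinase LCK, held by the tails of the coreceptors CD4 and CD8, phosphorylates these chains, ZAP70 docks on them, and ZAP70 then phosphorylates the adaptor LAT, on which the downstream enzymes assemble. CD4 binds MHC class II and marks helper and regulatory T cells, whereas CD8, a dimer of the chains encoded by *Cd8a* and *Cd8b1*, binds MHC class I and marks cytotoxic T cells. Some of these genes are also used outside conventional T cells: *Cd8a* in some dendritic cells, *Cd4* in some macrophages and plasmacytoid dendritic cells, *Lat* in mast cells and platelets, and *Lck*, *Zap70* and *Cd247* in NK cells.

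Total counts per library ranged from 19239531 to 43814403. The 6 inflamed skin libraries held 19239531 to 22528895 counts, fewer than any of the other 12, and only their columns in the table carried a sample-number suffix, so differences between the inflamed skin groups and the joint or steady-state groups cannot be told apart from whatever that depth and naming mark. Skin nonmigrated replicate 3 stood apart from its 2 partners: its 10 genes lay at 0.31 to 0.50 of their mean, while *C1qa*, a macrophage gene, was at 919 CPM (counts scaled to a common TMM-normalised library size) against 235 and 115, and *Cpa3*, a mast cell protease, at 84.7 against 5.58 and 5.55. Counts of called genes that rest on this group are given with and without that library. In bulk RNA, fewer T cells and less RNA per T cell cannot be told apart.

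The 3 CD3 genes lie together on chromosome 9 (GRCm38/mm10), *Cd3g* on the minus strand at chr9:44969572-44980431, *Cd3d* on the plus strand at chr9:44981786-44987339 and *Cd3e* on the minus strand at chr9:44998740-45009627. *Cd3g* and *Cd3d* are transcribed away from each other from starts that lie next to each other. *Cd247* and *Zap70* lie on chromosome 1, *Lck* on chromosome 4, *Lat* on chromosome 7, and *Cd4*, *Cd8a* and *Cd8b1* on chromosome 6, where *Cd8b1* and *Cd8a* are neighbours. Because the CD3 genes moved together across the groups, their promoters are shown, each from 250 bases before the start to 50 bases after it, as given by RefSeq (GRCm38.p6) at chr9:44980382-44980681 (minus strand), chr9:44981536-44981835 (plus strand) and chr9:45009562-45009861 (minus strand). Capitals mark matches on either strand to CAGNTG, the E box bound by basic helix-loop-helix proteins, and to GGAAGT, a core bound by ETS factors.
Cd3g: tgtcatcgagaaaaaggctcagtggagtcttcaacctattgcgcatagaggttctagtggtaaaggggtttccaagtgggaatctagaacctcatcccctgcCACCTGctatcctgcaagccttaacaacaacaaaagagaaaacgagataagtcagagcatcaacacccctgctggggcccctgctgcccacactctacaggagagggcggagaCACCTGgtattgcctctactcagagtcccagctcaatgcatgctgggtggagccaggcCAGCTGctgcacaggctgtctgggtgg
Cd3d: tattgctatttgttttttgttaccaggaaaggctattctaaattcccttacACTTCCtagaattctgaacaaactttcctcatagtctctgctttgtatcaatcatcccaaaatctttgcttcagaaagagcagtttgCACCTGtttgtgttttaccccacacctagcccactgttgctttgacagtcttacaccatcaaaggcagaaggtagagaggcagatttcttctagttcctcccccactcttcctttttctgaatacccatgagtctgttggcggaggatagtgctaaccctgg
Cd3e: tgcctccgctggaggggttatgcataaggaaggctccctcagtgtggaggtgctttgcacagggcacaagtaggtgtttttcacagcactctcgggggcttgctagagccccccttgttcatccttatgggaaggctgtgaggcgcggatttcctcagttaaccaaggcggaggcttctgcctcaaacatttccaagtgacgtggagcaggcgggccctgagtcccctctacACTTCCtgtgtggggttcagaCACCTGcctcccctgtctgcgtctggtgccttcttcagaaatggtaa

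The *Cd3g* window held 3 matches to CAGNTG and none to GGAAGT, and the *Cd3d* and *Cd3e* windows each held 1 match to each. Promoter windows were given for 8 of the 10 genes, and *Cd4* and *Cd8b1* had none. All 8 genes had CAGNTG in at least 1 window and 5 had GGAAGT. The 8 genes had 11 windows in all, so these counts per gene are not like the shares per window that follow. Of 32851 promoter windows of the same length, 51.4% held CAGNTG and 23.8% held GGAAGT, so CAGNTG on its own is common. A match of letters is a description of the sequence only.

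*Cd3e*, whose chain pairs with both of the other CD3 chains, was at 16.7, 28.3 and 34.3 CPM in joint nonmigrated replicates 1 to 3 and at 120, 119 and 45 CPM in skin nonmigrated replicates 1 to 3. In the nodes of inflamed mice it was at 243, 206 and 160 CPM in joint migrated and at 193, 196 and 194 CPM in skin migrated cells. At steady state it was at 206, 194 and 222 CPM in the joint group and at 278, 278 and 292 CPM in the skin group. Every node library was therefore above every tissue library, the joint nonmigrated group was the lowest, and the skin steady-state group was the highest. *Cd3d*, *Cd3g* and *Cd247* had the same outline. *Cd3d* ranged from 13.2 to 24.2 CPM in joint nonmigrated, 19.8 to 57.4 in skin nonmigrated and 116 to 193 over the 12 node libraries. *Cd3g* ranged from 23.3 to 53.0 CPM in joint nonmigrated, 66.5 to 202 in skin nonmigrated and 198 to 307 in the nodes, so here the highest skin library was above the lowest node library. *Cd247* ranged from 20.05 to 38.2 CPM in joint nonmigrated, 41.1 to 121 in skin nonmigrated and 170 to 249 in the nodes. *Cd247* shares 56.4% of its exon bases with *Pou2f1* on the opposite strand, so reads of the 2 genes may be mixed there.

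Summed over *Cd3d*, *Cd3e* and *Cd3g*, the mean was 85.3 ± 29.6 CPM (SD, n = 3 in this and each following group) in joint nonmigrated, 290 ± 138 in skin nonmigrated, 575 ± 1.27 in skin migrated, 598 ± 131 in joint migrated, 604 ± 97.7 in joint steady-state and 766 ± 8.05 in skin steady-state cells. In this order of group means the neighbouring groups skin migrated, joint migrated and joint steady state overlapped in their libraries, whereas joint and skin nonmigrated did not overlap.

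**Figure D1:**
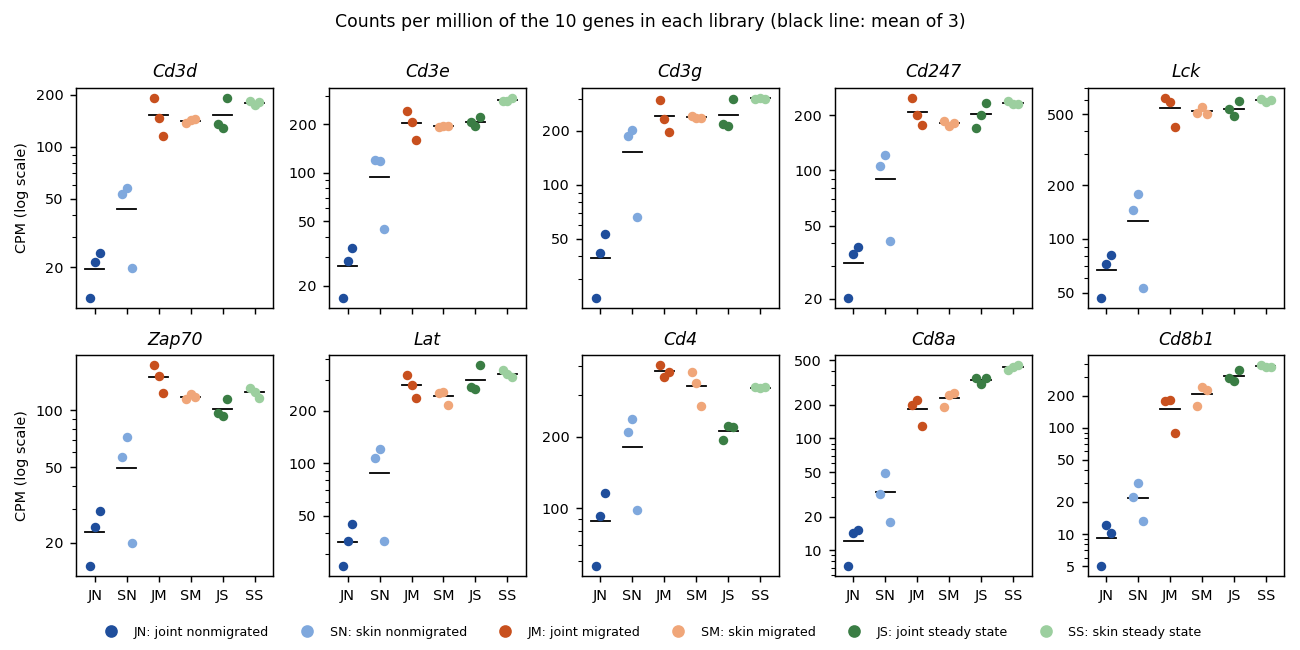
CPM (log scale) of each of the 10 genes in each of the 18 libraries, 3 points per group with a line at the mean. All 10 genes had their lowest group mean in joint nonmigrated cells, and skin nonmigrated replicate 3 (the right-hand point of that group) lay below its 2 partners for all 10.

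*Lck*, the kinase that starts the cascade, was at 46.4, 72.6 and 80.9 CPM in joint nonmigrated and at 145, 177 and 53.2 CPM in skin nonmigrated cells. It was at 619, 582 and 426 CPM in joint migrated and at 505, 545 and 502 CPM in skin migrated cells. The steady-state groups had 531, 485 and 593 CPM (joint) and 610, 586 and 598 CPM (skin). The 4 node groups thus lay between 426 and 619 CPM and the 2 tissue groups below 178 CPM. *Zap70*, the kinase that docks on the phosphorylated chains, was at 15.0, 24.2 and 29.3 CPM in joint nonmigrated and 56.8, 72.3 and 19.95 CPM in skin nonmigrated cells. It was at 172, 153 and 124 CPM in joint migrated, against 114, 122 and 117 CPM in skin migrated and 96.8, 93.8 and 115 CPM in joint steady-state cells. All 3 joint migrated libraries were thus above all 3 joint steady-state libraries for *Zap70*. *Lat*, the adaptor, ranged from 25.7 to 44.6 CPM in joint nonmigrated, 35.6 to 120 CPM in skin nonmigrated and 218 to 365 CPM over the 4 node groups. Per kilobase of exon, *Lck* was the highest of the 7 signalling genes in the 4 node groups, at 177 to 204 CPM per kilobase in the group means, against 33.9 to 43.8 for *Cd247* and 34 to 50.01 for *Zap70*. RefSeq gives *Lck* 2 promoter windows, which gene counts do not separate.

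All 10 genes were higher in joint migrated than in joint nonmigrated cells, where 16.0% of the 16777 genes tested were called higher. A gene was called where the edgeR quasi-likelihood test, with Benjamini-Hochberg adjustment over all genes tested, gave an adjusted p below 0.05 and the log2 change was past 1 in size. The smallest rise was that of *Cd4*, 4.28-fold (log2 2.10 ± 0.32 SE, edgeR adjusted p = 0.000181), and the largest that of *Cd8b1*, 16.5-fold (log2 4.04 ± 0.42 SE, edgeR adjusted p = 1.11e-05). *Cd8a* rose 15.1-fold, *Lck* 8.14-fold, *Lat* 7.94-fold, *Cd3d* 7.75-fold, *Cd3e* 7.69-fold, *Cd247* 6.70-fold, *Zap70* 6.57-fold and *Cd3g* 6.201-fold. The median log2 change of the 10 genes was 2.95 against 0.02 over all genes tested. For every one of the 10 genes the 3 joint migrated libraries were above the 3 joint nonmigrated ones. The share of all genes without such overlap was not counted. All 10 calls held under the 20 alternative analyses.

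In skin, 8 of the 10 genes were called higher in migrated than in nonmigrated cells, where 15.7% of genes were called higher. *Cd8b1* rose 9.50-fold (log2 3.25 ± 0.40 SE, edgeR adjusted p = 4.24e-05), *Cd8a* 6.94-fold, *Lck* 4.11-fold and *Cd3d* 3.24-fold. *Lat* rose 2.75-fold, *Zap70* 2.36-fold, *Cd3e* 2.04-fold and *Cd247* 2.02-fold. *Cd3g* had a log2 difference of 0.64 ± 0.37 SE (edgeR adjusted p = 0.158), and *Cd4* had 0.85 ± 0.31 SE, which had an adjusted p of 0.0337 in edgeR but was below the fold threshold. The median log2 change of the 10 genes was 1.35 against 0.01 over all genes. Without skin nonmigrated replicate 3, 5 genes were called, *Cd3d*, *Lck*, *Lat*, *Cd8a* and *Cd8b1*, and the log2 difference of *Cd3g* was 0.29, of *Cd247* 0.67 and of *Cd8b1* 2.99.

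Between the inflamed tissues, 9 of the 10 genes were called lower in joint nonmigrated than in skin nonmigrated cells, where 8.86% of genes were called lower. *Cd3g* differed most, at 0.257 of its skin level (SE 0.38 on the log2 scale, edgeR adjusted p = 0.00378), followed by *Cd3e* (log2 -1.85 ± 0.35 SE, edgeR adjusted p = 0.00323) and *Cd247* (-1.52 ± 0.35 SE, edgeR adjusted p = 0.00811). *Lck* was not called (log2 -0.92 ± 0.35 SE, edgeR adjusted p = 0.0752), and the remaining 6 genes lay between -1.44 (*Cd8a*) and -1.04 (*Cd4*). The libraries of the 2 groups did not overlap for 5 genes, *Cd3e*, *Cd3g*, *Cd247*, *Cd8a* and *Cd8b1*, and the share of all genes without overlap was not counted. For the other 5 genes the overlap came through skin nonmigrated replicate 3, and without it all 10 genes were called, with log2 differences from -2.31 (*Cd3g*) to -1.28 (*Lck*). Without skin nonmigrated replicate 1 or 2 the count was 4 or 3, and without joint nonmigrated replicate 1 or 2 it was 4 or 5. With only the 2 groups in the fit it was 2.

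In the nodes of inflamed mice, none of the 10 genes was called different between joint migrated and skin migrated cells, where 1.14% of genes were called. None had an unadjusted edgeR p under 0.05, beside 2770 of the 16777 genes tested, and DESeq2 also called none. The log2 differences ran from -0.48 (*Cd8b1*, approximate confidence interval from -1.197 to 0.24) to 0.35 (*Zap70*, interval from -0.37 to 1.07), so for *Cd8b1*, *Zap70* and *Cd8a* (interval from -1.01 to 0.36) differences of the size of the call threshold lay inside the interval. For *Cd3e* the interval was -0.59 to 0.73. *Zap70* was the only one of the 10 genes whose libraries did not overlap between these groups, and the share of all genes without overlap was not counted.

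The rise from nonmigrated to migrated cells was larger in joint than in skin for 3 genes, where 3.96% of genes were called in that direction. The difference of the 2 log2 changes was 1.91 ± 0.48 SE for *Cd3e* (edgeR adjusted p = 0.0348), 1.99 ± 0.53 SE for *Cd3g* (0.0412, the same test) and 1.73 ± 0.48 SE for *Cd247* (0.0485, the same test). The other 7 genes had positive differences as well, from 0.79 (*Cd8b1*) to 1.53 (*Lat*), and were not called. These 3 calls were thin: leaving out any 1 of the 12 inflamed libraries other than skin nonmigrated replicate 3 left between 0 and 2 calls, and leaving out that library gave 9. *Cd3e* and *Cd3g* were also the genes with the lowest adjusted p in skin nonmigrated against joint nonmigrated cells, which share libraries with this contrast.

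**Figure D2:**
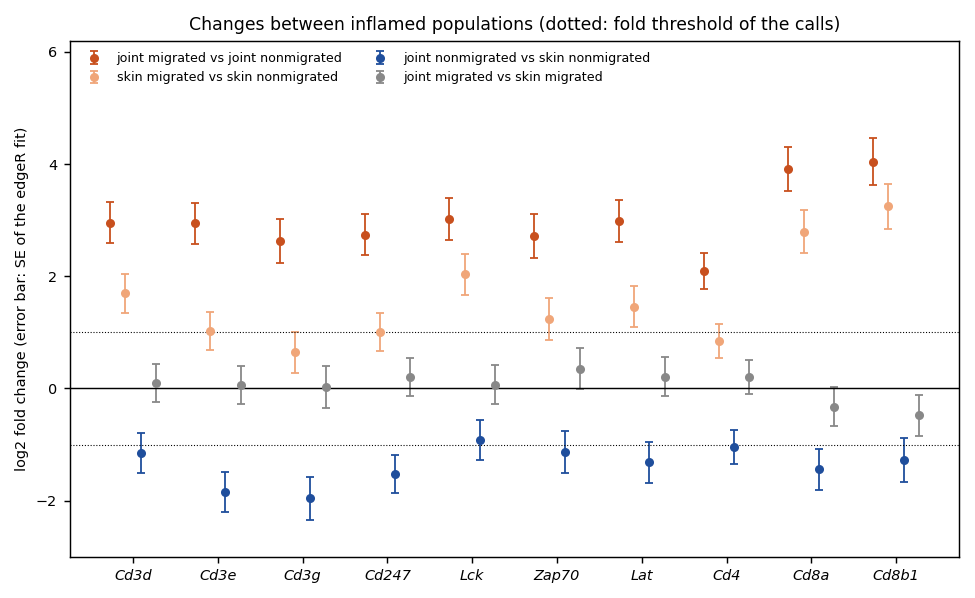
Log2 fold changes with their standard errors for the 10 genes in 4 comparisons among the inflamed groups, each from the edgeR fit of 12 libraries. The joint migration changes lay between 2.10 and 4.04, the skin migration changes were lower for each gene, and joint migrated and skin migrated cells lay near 0.

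Gamma delta T cells use CD3 chains, though not necessarily all of them, but mostly neither coreceptor. Of 7 gamma delta markers, 5 were called lower in joint nonmigrated than in skin nonmigrated cells, where 8.86% of genes were called lower. The summed level of the 7 was 30.0 to 59.4 CPM against 116 to 340 CPM. The count was also 5 without skin nonmigrated replicate 3. One of the 7, *Blk*, is also a B cell gene, and without it the sum was 21.9 to 40.7 CPM in joint nonmigrated and 110 to 327 CPM in skin nonmigrated cells. In the nodes the other 6 markers summed to 170 to 331 CPM in joint migrated and 166 to 237 CPM in skin migrated cells, against 66.9 to 83.3 and 54.9 to 63.7 CPM at steady state. At both sites all 6 were called higher in migrated than in steady-state cells, where 16.9% (joint) and 21.5% (skin) of genes were called higher, and *Blk* was called lower. *Trdc*, the constant region of the delta chain, was at 9.63, 14.6 and 17.6 CPM in joint nonmigrated and at 153, 155 and 50.7 CPM in skin nonmigrated cells. *Trdv4* was at 39.9, 35.3 and 12 CPM in skin nonmigrated cells and at or below 2.92 CPM in the libraries of every other group. In the same comparison *Trac*, the constant region of the alpha chain, was at 50.7, 66.0 and 93.1 CPM against 120, 140 and 44.6 CPM. The overlap came through skin nonmigrated replicate 3, and the log2 difference of *Trac* was -0.54 ± 0.34 SE with that library and -0.89 ± 0.21 SE without it, called in neither fit. The part of gamma delta T cells in the CD3 difference between tissues was not tested.

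Against the steady-state node, 1 of the 10 genes was called lower in joint migrated cells, where 7.31% of genes were called lower. This was *Cd8b1*, at 177, 181 and 89.5 CPM against 294, 277 and 352 CPM (log2 -1.01 ± 0.23 SE, edgeR adjusted p = 0.00226). Its change was at the fold threshold, and the call was lost without joint migrated replicate 3 (-0.74), joint steady-state replicate 3 (-0.89) or skin migrated replicate 2 (-0.9999). *Cd8a* had -0.82 ± 0.17 SE (edgeR adjusted p = 0.00138), whereas *Cd4* had 0.86 ± 0.12 SE (edgeR adjusted p = 4.4e-05) and *Zap70* 0.59 ± 0.12 SE (edgeR adjusted p = 0.00115). These 3 passed the test at p and not at the fold threshold. The CD3 chains, *Cd247*, *Lck* and *Lat* lay between -0.07 and 0.08 with standard errors of 0.13 to 0.17. The median of the 10 genes was 0.03 against -0.02 over all genes.

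None of the 10 genes was called in skin migrated against skin steady-state cells, where 36.5% of genes were called in either direction. At an unadjusted edgeR p under 0.05 there were 5 of the 10 genes, beside 11692 of the 17107 genes tested, and DESeq2 also called none. The largest differences were those of *Cd8a* (log2 -0.87 ± 0.17 SE, edgeR adjusted p = 0.000599) and *Cd8b1* (-0.83 ± 0.23 SE, edgeR adjusted p = 0.00578), and *Cd3e* had -0.51 ± 0.13 SE (edgeR adjusted p = 0.00328). *Cd4* had 0.06 ± 0.12 SE (edgeR adjusted p = 0.694). Leaving out skin migrated replicate 3 gave 1 call. Between the 2 steady-state nodes none was called either, where 3.89% of genes were called. Of the 10 genes, 4 had an unadjusted edgeR p under 0.05, beside 3708 of the 17107 genes tested, and DESeq2 called none. *Cd4* was at 194, 223 and 221 CPM in the joint group and at 325, 320 and 323 CPM in the skin group, a log2 difference of -0.61 ± 0.12 SE (edgeR adjusted p = 0.00552) that was below the fold threshold.

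The difference between sites in the change from steady state to inflamed was called for none of the 10 genes, where 6.11% of genes were called. At an unadjusted edgeR p under 0.05 there were 4 of the 10 genes, beside 4635 of the 17107 genes tested, and DESeq2 called none. It passed the test at p, and not at the fold threshold, for *Cd4* (log2 0.81 ± 0.17 SE, edgeR adjusted p = 0.00886) and *Zap70* (0.64 ± 0.17 SE, edgeR adjusted p = 0.031), both with the larger change in the joint.

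*Cd4* and the CD8 genes did not follow one another across the groups. *Cd4* was at 57.1, 92.6 and 116 CPM in joint nonmigrated, 209, 237 and 98.8 CPM in skin nonmigrated, 400, 358 and 375 CPM in joint migrated and 377, 338 and 270 CPM in skin migrated cells. Its highest group mean was that of joint migrated cells, whose libraries overlapped those of skin migrated cells. *Cd8a* was at 7.19, 14.4 and 15.1 CPM in joint nonmigrated, 31.96, 49.4 and 17.7 CPM in skin nonmigrated, 199, 222 and 130 CPM in joint migrated and 190, 244 and 257 CPM in skin migrated cells. At steady state it was at 344, 305 and 349 CPM in the joint group and at 413, 432 and 449 CPM in the skin group. *Cd8b1* had 4.98, 12.1 and 10.2 CPM in joint nonmigrated, 22.4, 30.1 and 13.1 CPM in skin nonmigrated and 160, 242 and 224 CPM in skin migrated cells. At steady state *Cd8b1* was at 294, 277 and 352 CPM (joint) and 385, 374 and 375 CPM (skin). All 6 steady-state libraries were above all 6 migrated libraries for both CD8 genes.

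The CD4 to CD8 balance was taken as the ratio of *Cd4* to *Cd8a* counts, each per kilobase of exon. In single libraries it was 7.16, 5.82 and 6.94 in joint nonmigrated and 5.91, 4.33 and 5.03 in skin nonmigrated cells. It was 1.82, 1.45 and 2.61 in joint migrated and 1.79, 1.25 and 0.948 in skin migrated cells. At steady state it was 0.509, 0.660 and 0.571 (joint) and 0.710, 0.670 and 0.650 (skin). *Cd4* thus exceeded *Cd8a* in all 6 tissue libraries and in 5 of the 6 migrated ones, and lay below it in all 6 steady-state ones. Some macrophages also use *Cd4*, and macrophage and monocyte markers summed to 2526 to 9967 CPM in the tissues and 142 to 560 CPM in the nodes. The part of such cells in the ratio was not tested. Against *Cd8b1* in place of *Cd8a* the ratio was above 1 in all 6 tissue libraries, in 1 of the 6 migrated ones (0.833, 0.726 and 1.54 in joint, 0.866, 0.514 and 0.444 in skin) and in no steady-state one, so in migrated cells which coreceptor was higher depended on the CD8 gene used. The mean log2 ratios were 2.72 ± 0.16 (SD, n = 3), 2.34 ± 0.22, 0.93 ± 0.43, 0.36 ± 0.46, -0.79 ± 0.19 and -0.57 ± 0.07 in the same order of groups.

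Within sites, the log2 ratio of migrated minus nonmigrated cells was -1.89 ± 0.20 SE (two-sided exact permutation test within site, p = 0.005, adjusted p = 0.0075 over 6 tests), and both sites had that direction with no overlap. This p is the smallest that the 400 arrangements allow. Inflamed migrated cells had a ratio higher by 1.32 ± 0.19 SE than steady-state node cells of the same site (exact p = 0.005, adjusted p = 0.0075), again with no overlap at either site. The difference was 1.72 in the joint and 0.93 in skin, and the difference between sites was not tested. For a single pair of groups the exact test cannot go below 0.1, which was the p of each of these 4 pairs. Joint minus skin averaged 0.24 ± 0.14 SE over the 3 states (exact p = 0.143, adjusted p = 0.172), and the states went opposite ways, at 0.39 ± 0.16 SE in nonmigrated, 0.57 ± 0.36 SE in migrated and -0.23 ± 0.11 SE in steady-state cells (exact p = 0.2 for each). With *Cd8b1* the steady-state difference was -0.30 ± 0.11 SE, with libraries that did not overlap (exact p = 0.1). With *Cd8b1* in place of *Cd8a* the 3 differences were -2.14, 1.41 and 0.24, with the same p-values for the first 2. Some dendritic cells make *Cd8a* without *Cd8b1*. The log2 ratio of *Cd8a* to *Cd8b1* was -0.26 ± 0.09 SE in migrated minus nonmigrated cells (exact p = 0.045, outside the adjustment over 6 tests). It was -0.11 ± 0.15 SE in joint, where the libraries overlapped, and -0.40 ± 0.11 SE in skin, where they did not. Between inflamed and steady state this ratio did not differ beyond the spread (0.09 ± 0.08 SE, exact p = 0.34).

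**Figure D3:**
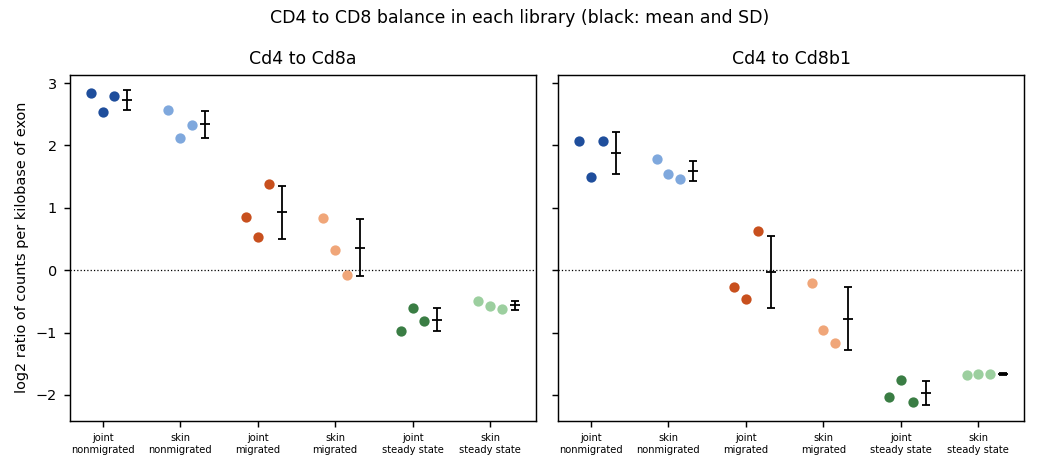
Log2 ratio of counts per kilobase of exon, *Cd4* to *Cd8a* on the left and *Cd4* to *Cd8b1* on the right, in each of the 18 libraries with the mean and SD of each group. For *Cd8a* the group means fall from 2.72 in joint nonmigrated to -0.79 in joint steady-state cells, and the dotted line marks equal counts per kilobase.

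Each other gene was also set against the mean of the 3 CD3 genes in its library, on a log2 scale with the 6 steady-state libraries at 0 (a description, with no test). *Cd247* stayed near the CD3 mean, between -0.10 and 0.29 in all 18 libraries. *Lck* lay between -0.16 and 0.24 in 15 libraries and at -0.91, -0.68 and -0.91 in skin nonmigrated cells, so there it was low for the CD3 level, as was *Lat* (-0.49, -0.39 and -0.64). *Zap70* was high for the CD3 level in joint nonmigrated (0.70 to 0.77) and joint migrated cells (0.49 to 0.66), and between 0.27 and 0.35 in skin migrated cells. *Cd4* was high in all 4 inflamed groups, at 1.41 to 1.48 in joint nonmigrated, 0.73 to 1.10 in skin nonmigrated, 0.49 to 1.03 in joint migrated and 0.28 to 0.77 in skin migrated cells, the last 3 overlapping. *Cd8b1* was low for the CD3 level in all 4, at -2.42 to -1.90 and -2.87 to -2.19 in joint and skin nonmigrated and at -1.41 to -0.71 and -0.84 to -0.26 in joint and skin migrated cells. The low *Lck* and *Lat* of the skin and the low CD8 genes of both tissues were present in skin nonmigrated replicate 3 as well.

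**Figure D4:**
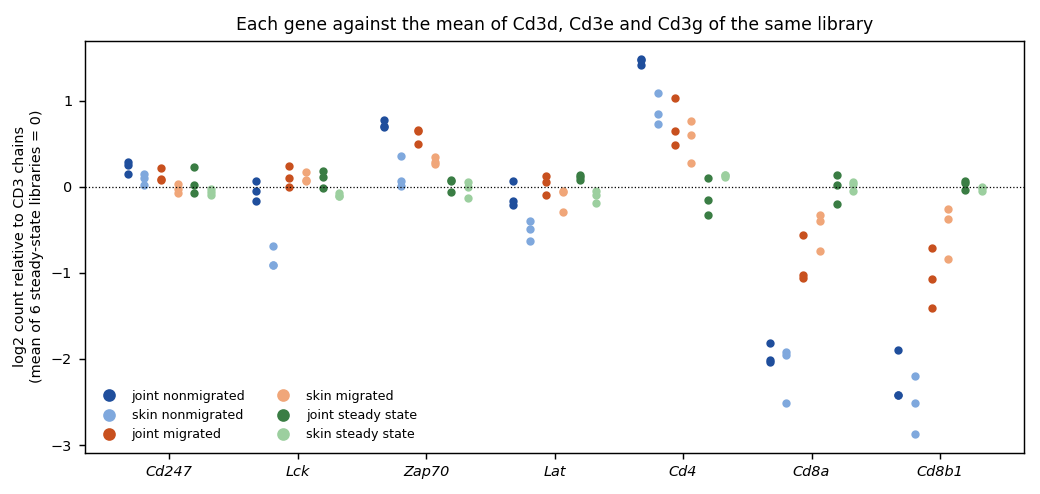
Log2 count of 7 genes relative to the mean of *Cd3d*, *Cd3e* and *Cd3g* of the same library, with the mean of the 6 steady-state libraries set to 0, 1 point per library. *Cd247* lies near 0 in all groups, *Lck* near -0.84 in skin nonmigrated cells, and *Cd8a* and *Cd8b1* at -1.81 or lower in both nonmigrated groups.

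Among 18099 genes compared, the genes whose pattern over the 18 libraries was most like the mean of the 3 CD3 genes were *Cd96*, a receptor of T and NK cells, and *Skap1*, a T cell adaptor. The likeness was the root mean square difference of centred log2(CPM + 1), which was 0.12 for *Cd96* and 0.14 for *Skap1* against a median of 1.21 over genes. *Hid1*, *Themis*, *Ets1*, *Trbv16*, *Cd6*, *Gstp3*, *Sept1* and *Tox* came next, at 0.20 to 0.28. Of the genes described here, *Cd247* was at 0.12 and *Lat* at 0.21, whereas *Cd4* was at 0.52 and *Cd8b1* at 1.00. Closest to *Cd4* were *Eya2*, *Trbv2*, *Rab11fip4*, *A430093F15Rik* and *Tnfsf8*, at 0.17 to 0.24. Closest to *Cd8b1*, besides *Cd8a* at 0.19, were *Nsg2*, *Dapl1*, *Gm11346*, *Tcf7* and *Tdrp*, at 0.31 to 0.46.

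Of all genes, 16.0% were called higher and 18.4% lower in joint migrated than in joint nonmigrated cells, and 15.7% and 19.7% in skin. These shares stand beside the migration counts that follow. Of 25 partners of the receptor cascade, 14 were called higher and none lower in joint migrated than in joint nonmigrated cells (median log2 1.73 against 0.02 over all genes). *Grap2*, the LAT-associated adaptor, rose by 2.43 on the log2 scale, the kinase *Fyn* by 1.72 and *Trat1* by 3.71. In skin, 9 were called higher and 1 lower (median 0.51 against 0.01): *Prkcq*, a T cell protein kinase C, rose by 2.24, and *Malt1*, a protease of the NF-kappa B branch, had -1.42. Without skin nonmigrated replicate 3 the skin counts were 5 higher and 2 lower. Several of these partners are used by leukocytes of many kinds. Between the tissues, no partner was called higher in joint than in skin nonmigrated cells and 6 were called lower, where 8.86% of genes were called lower. The 6 included *Trat1* (-3.06) and *Malt1* (-1.93). Without skin nonmigrated replicate 3 this count was 12, with *Trat1* at -3.40 and *Malt1* at -2.25. Of 19 genes that restrain the cascade, 11 were called higher and 1 lower in joint migrated against nonmigrated cells (median 1.93), led by *Btla*, *Dgka* and *Sla2*, with *Dok2* lower. In skin 7 were called higher and none lower (median 0.76), and 8 higher and 1 lower without skin nonmigrated replicate 3. Against the steady-state node, 6 of the 19 were called higher and 2 lower in joint migrated cells, where 16.9% and 7.31% of genes were called so. In skin migrated cells these counts were 7 and 2, beside 21.5% and 15.0% of genes. Among them, *Lag3*, an inhibitory receptor, rose by 2.72 in joint migrated and by 2.17 in skin migrated cells, and *Btla* had -1.78 and -2.58. All 6 B cell markers were also called lower there at both sites, and their part in the change of *Btla* was not tested. All 14 further T cell genes were called higher in joint migrated cells and 13 of 14 in skin migrated cells, the exception being *Il7r*, which had -0.61 ± 0.19 SE there. The skin count was 10 of 14 without skin nonmigrated replicate 3.

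Of 6 genes tied to the CD4 and CD8 lineages, *Tox*, *Satb1* and *Cd40lg* were called higher in joint migrated than in joint nonmigrated cells, where 16.0% of genes were called higher. The other 3, among them *Runx3* and *Zbtb7b*, were not called there. In skin, *Tox* and *Satb1* were called higher and *Runx1* lower, where 15.7% and 19.7% of genes were called so. Without skin nonmigrated replicate 3 the skin counts were 1 higher and 1 lower. *Runx3*, which silences *Cd4* in CD8 T cells and is also used by NK and tissue-resident lymphocytes, was at 108, 134 and 139 CPM in joint nonmigrated and at 355, 350 and 229 CPM in skin nonmigrated cells (log2 -1.30 ± 0.17 SE, edgeR adjusted p = 0.000378, and -1.47 without skin nonmigrated replicate 3). The skin nonmigrated libraries were the highest of all 18 for *Runx3*. *Zbtb7b*, which directs CD4 lineage choice and is not limited to T cells, was at 155 to 224 CPM in the 2 tissue groups and at 89.6 to 124 CPM over the node groups.

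Markers of other cells also differed between the groups, some in the direction of the 10 genes and some against it. Their part in the changes was not tested. The 10 macrophage and monocyte markers summed to 6606 to 9967 CPM in joint nonmigrated, 2526 to 7592 in skin nonmigrated and 142 to 560 CPM over the 12 node libraries, and 9 of 10 were called lower in migrated than in nonmigrated cells at both sites, where 18.4% (joint) and 19.7% (skin) of genes were called lower. The 7 neutrophil markers summed to 5141 to 15980 CPM in joint nonmigrated, 1583 to 2600 in skin nonmigrated and 13.4 to 89.8 CPM in migrated cells, against 418 to 820 in joint and 11.1 to 17.9 in skin steady-state cells, and all 7 were called lower in migrated than in nonmigrated cells at both sites. These skin counts were also 9 and 7 without skin nonmigrated replicate 3. The 6 NK markers summed to 30.1 to 46.4 CPM in joint nonmigrated and 34.1 to 131 in skin nonmigrated cells, against 113 to 243 in migrated and 43.8 to 66.6 in steady-state cells. All 6 NK markers were called higher in migrated than in steady-state cells at both sites, as were 4 of 5 (joint) and 3 of 5 (skin) cDC1 markers, beside the shares of 16.9% and 21.5% over all genes. The other cDC1 marker in joint, *Tlr3*, was called lower (log2 -1.19). In skin the lowest cDC1 log2 change was -0.95 and was not called. Of dendritic cells, which can carry *Cd4* or *Cd8a*, the 5 cDC1 markers summed to 7.36 to 75.8 CPM over the 18 libraries. Their highest value was in skin nonmigrated replicate 3. The 6 plasmacytoid markers summed to 78.9 to 238 CPM, with *Tcf4* alone at 45.9 to 122 CPM and *Siglech* at 1.2 to 23.7 CPM. Against steady state, 3 of these 6 were called higher and 2 lower in joint migrated cells (16.9% and 7.31% of all genes). In skin migrated cells 1 was called higher and 4 lower (21.5% and 15.0% of all genes). The 7 mast cell and platelet markers summed to 151 to 583 CPM in the tissues and 6.54 to 182 CPM in the nodes. Of these 7, *Pf4* alone was at 37.8 to 322 CPM in the tissues, whereas *Gp9* was at or below 0.541 CPM in every library. *Pf4* was at 0 in all 3 skin steady-state libraries. The 6 B cell markers summed to 122 to 292 CPM in joint nonmigrated and 10.8 to 25.1 CPM in skin nonmigrated cells, 846 to 1125 CPM in joint migrated and 156 to 261 CPM in skin migrated cells, and 3033 to 4958 CPM at steady state. All 6 were called higher in migrated than in nonmigrated cells at both sites (median log2 2.38 in joint and 5.24 in skin), as the 10 genes were in the joint. Over all genes, 16.0% (joint) and 15.7% (skin) were called higher there. Between the migrated groups all 6 were called higher for the joint, where 0.56% of genes were called higher, and lower in migrated than in steady-state cells at both sites, where 7.31% (joint) and 15.0% (skin) of genes were called lower.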

How the data were processed

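Kaede mouse CD45+ leukocytes were profiled by paired-end RNA-Seq in 18 libraries (6 groups of 3, by their labels). The authors trimmed reads with Trim Galore, aligned them with TopHat2 to mm10 with Ensembl models, and counted reads per gene with HTSeq at default settings. The deposited values are these whole-number counts, not normalised. Tool versions and library strandedness are not given in the sources used here. The table held 49585 genes after removal of 5 summary rows (no feature 0.092% to 0.562%, ambiguous 1.84% to 2.37%). Of these genes, 49326 matched GENCODE M21, which gave symbols, positions and exon lengths.

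Counts were tested with edgeR 4.0.16 (quasi-likelihood, TMM, filterByExpr minimum 10, Benjamini-Hochberg adjustment over all tested genes, adjusted p under 0.05 and absolute log2 fold change above 1, the thresholds of the study's methods, which used DESeq2) in R 4.3.3. Fits used the 12 inflamed libraries (16777 genes) or the 12 node libraries (17107 genes), with group as the only term. The CD4 to CD8 ratio was tested by exact permutation within sites (scipy 1.17.1). Alternatives were DESeq2 1.42.0, its size factors, other filters, a threshold of 0.001, other sets of libraries, a replicate block, leaving out each library, *Cd8b1* for *Cd8a*, a pseudocount of 0.5 and *Cd3e* as the CD3 reference. Fits were checked on simulated data. Replicates of a group differed far beyond counting error (chi-square per degree of freedom 16.2 to 130), so none was a copy of another. The highest value was between skin nonmigrated replicates 2 and 3. All 18 libraries were kept. A count of 3 equalled 0.0616 to 0.18 CPM. Named genes were the 10, at most 3 called genes with the smallest adjusted p whose groups did not overlap per list and direction, and the nearest genes by likeness. *Malt1*, *Trat1*, *Il7r*, *Trac*, *C1qa*, *Cpa3*, *Runx3*, *Zbtb7b*, *Pf4*, *Gp9* and *Tcf4* were in part named after values were seen, as were the 2 promoter motifs. The members and lists were chosen with earlier results of these data known.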

Additional observations from a re-analysis of the deposited data

Results flagged for a closer look

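The difference between sites passed a test for 5 results. The migration change (migrated against nonmigrated) was larger in joint than in skin by 1.91 (log2) for *Cd3e*, by 1.99 for *Cd3g* and by 1.73 for *Cd247* (edgeR interaction term, adjusted p from 0.0348 to 0.0485). The inflammation change (migrated against steady state) was larger in joint than in skin by 0.64 for *Zap70* and by 0.81 for *Cd4* (edgeR interaction term, adjusted p of 0.031 and 0.00886), both below the fold threshold. The first 3 rest on skin nonmigrated cells, in which replicate 3 had 0.34 to 0.38 of the level of its 2 partners for these genes. No explanation was tested.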

How the results depend on the processing

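All 10 calls in joint migrated against nonmigrated cells, and the direction and side of the threshold of the 3 balance tests, held under every alternative run (left-out-library ranges -2.01 to -1.78, 1.20 to 1.43 and 0.17 to 0.32). The skin migration count of 8 was 3 at a threshold of 0.001 and 5 to 9 with single libraries left out. The count of 9 lower in joint nonmigrated cells was 0 at 0.001, 2 with only the groups compared, and 3 to 10 with single libraries left out. The 3 site differences in migration were 0 at 0.001, 6 with the DESeq2 Wald test, 6 with all 18 libraries in 1 fit, and 0 to 9 with single libraries left out. The 1 call of joint migrated against steady-state cells was 0 at 0.001, 0 with 10 counts in every library of 1 group, and 0 to 1 with single libraries left out, and the skin count of 0 was 0 to 1. The cause of these shifts was not tested. Same-numbered joint migrated and nonmigrated libraries correlated at 0.012, 0.145 and 0.191 and skin ones at 0.102, 0.049 and 0.128, and no source pairs them. A replicate block within site gave 0 site differences in migration, 6 calls between tissues and 8 in skin.

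Signs near 0 changed for genes that were not called. In joint migrated against steady-state cells, *Cd3d* had -0.0022 with no filter, *Cd3e* had -0.0078 with DESeq2 size factors, -0.0088 with the DESeq2 Wald test, -0.0346 with no filter, -0.0151 with the replicate block and -0.0306 with all 18 libraries, and *Cd3g* had -0.0105 with no filter and -0.0064 with all 18 libraries. With single libraries left out, the ranges there were -0.21 to 0.25 for *Cd3d*, -0.18 to 0.15 for *Cd3e*, -0.18 to 0.22 for *Cd3g*, -0.10 to 0.21 for *Cd247*, -0.092 to 0.20 for *Lck* and -0.22 to 0.10 for *Lat*. In joint against skin migrated cells they were -0.083 to 0.30 for *Cd3d*, -0.063 to 0.25 for *Cd3e*, -0.12 to 0.20 for *Cd3g* and -0.016 to 0.25 for *Lck*. In skin migrated against steady-state cells *Cd4* ran from -0.10 to 0.13, and in the site difference of inflammation *Cd8a* ran from -0.055 to 0.31 and *Cd8b1* from -0.33 to 0.14. The lowest count of the 10 genes was 182, and the part of the lower depth of the inflamed skin libraries was not tested. The list counts without skin nonmigrated replicate 3 and the gamma delta sum without *Blk* were added after seeing the data.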
